A study of Macaca mulatta with 14 samples.

Results

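Pyrimidine nucleotides, the uridine, cytidine and thymidine building blocks of RNA and DNA, are made by a set of enzymes of which 10 genes were followed here: CAD, DHODH, UMPS, CTPS1, UCKL1, UCK1, UCK2, UPP1, TYMS and CMPK1. The members were all probe sets whose only gene symbol in the platform annotation was one of these names. Of the 10 genes, 7 had such a probe set, with 14 probe sets among the 52865 on the array. UCK1, UMPS and CMPK1 had none and were not analysed here. Of the 14 probe sets, 11 passed the brightness filter, and all 7 genes kept at least 1 of them.

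Blood of male rhesus macaques gave the peripheral mononuclear cells (PBMC, that is T, B and NK lymphocytes with monocytes), with 1 Affymetrix expression array per animal. The question was which transcripts differ in these cells after years of eating less, and the study compared 7 animals on a control diet, aged 24 to 27 years, with 7 on a calorie restricted (CR) diet, aged 24 to 30 years. Restriction had lasted 16 years, which is taken to refer to the CR animals alone because the design text does not separate the diets on this point. No age was given for single animals, so age could not be set apart from diet.

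The values are MAS5 intensities, a brightness per probe set that was already scaled to the same mean on each array, and differences are given as log2 of intensity, CR minus control, with the standard error (SE) of a limma fit over 26383 probe sets. Control 1 had the lowest median correlation with the other arrays (0.879, against 0.908 to 0.933 for the other 13). It also had the highest ratio of 3-prime to 5-prime GAPDH signal, used as a sign of RNA quality (7.50 on the log2 scale, against 5.06 to 6.87). On every array the 3-prime signal was far above the 5-prime signal, by at least 5.06 log2 units. How well the ratio measures RNA quality here was not tested. Marker genes of the expected cells were measured: 7 T cell, 6 B cell, 12 NK cell and 10 monocyte markers passed the brightness filter, and none of the markers on the array was under the intensity floor of 16 on every array. The summed monocyte signal ran from 35536 to 89745 in controls and from 7813 to 69170 in CR, and CR 6 and CR 7 had the lowest monocyte scores (-1.76 and -1.36, the mean of the centred log2 values). The same arrays were lowest for neutrophil markers (-1.53 and -1.58) and platelet markers (-2.02 and -1.12). The summed NK signal ran from 102524 to 224758 in controls and from 174126 to 329779 in CR. In PBMC measured in bulk, fewer cells of a type and less RNA per cell cannot be told apart.

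Cells obtain pyrimidines by 2 routes. De novo synthesis builds the ring from bicarbonate, glutamine and aspartate: CAD carries the first reactions, DHODH oxidises dihydroorotate in the mitochondrial inner membrane, UMPS makes UMP, and CTPS1 turns UTP into CTP. Salvage reuses free nucleosides: uridine-cytidine kinases (UCK1 and UCK2) phosphorylate uridine and cytidine, CMPK1 adds the next phosphate, and UPP1 splits uridine into uracil and a ribose phosphate. UCKL1 is named for its likeness to the uridine-cytidine kinases. TYMS makes the thymidine nucleotide of DNA from dUMP. Resting blood lymphocytes are known to rely mostly on salvage, while stimulated lymphocytes need de novo synthesis, which is why inhibitors of DHODH are used to dampen lymphocyte proliferation and why inherited loss of CTPS1 impairs it.

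UCKL1, a uridine-cytidine kinase-like enzyme, had the widest separation of the diets among the members. In controls its intensity (probe set MmugDNA.30168.1.S1_at) ran from 1826 through a median of 2295 to 2627, and in CR from 2724 through 3792 to 5381. All 7 CR values lay above all 7 control values, although the lowest CR value, in CR 2, was close to the highest control value, in control 6. The mean log2 intensity was 11.14 ± 0.20 (SD, n = 7) in controls and 11.86 ± 0.36 in CR animals, so that CR was higher by 0.73 ± 0.17 (SE) or 1.65-fold. The members were chosen by pathway around UCKL1, which was itself selected on its small unadjusted p for the diet difference on these same arrays, so these values describe the choice and no test is given for them. For scale, 8 of 26383 probe sets (0.0303%) had every CR value above every control value.

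Within the CR group UCKL1 was uneven. CR 1 and CR 2 were at 2761 and 2724, just above the controls, while CR 3, CR 5 and CR 6 were at 4513, 4188 and 5381. The difference was 0.64 without CR 6 and 0.80 without CR 2, the lowest and highest values with 1 array left out. It was 0.64 ± 0.18 without CR 6 and CR 7 together, whose monocyte scores were lowest, and 0.78 ± 0.17 without control 1 and CR 2, the arrays that correlated least with the others. The other probe set of the gene (MmugDNA.38022.1.S1_at) was too dim to be tested, from 20.4 to 172 in controls and from 27.5 to 224 in CR. It did not follow the brighter one between animals of a diet (r = -0.088 over 14 arrays, as a description).

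**Figure D1:**
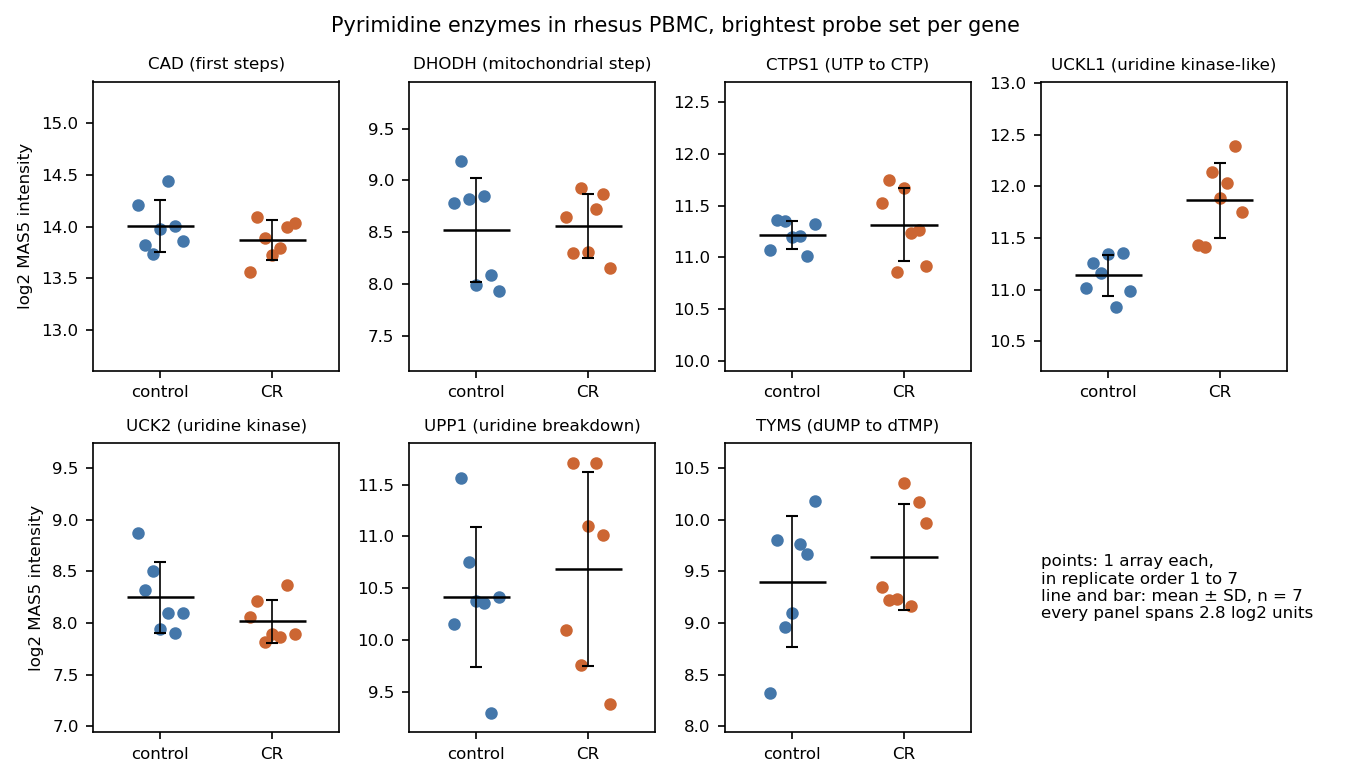
Log2 MAS5 intensity (vertical axis) of the brightest probe set of each of the 7 measured genes, with 1 point per array in replicate order, for control (blue) and CR (orange) animals; lines and bars are mean ± SD, n = 7. The 7 CR values of UCKL1 lie above its 7 control values, and the groups overlap in the other 6 genes.

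UCK2, the uridine-cytidine kinase that is typically high in dividing cells and that activates cytotoxic nucleoside drugs such as azacitidine, lay on the other side of 0. Its intensity ran from 240 through a median of 275 to 469 in controls and from 226 through 238 to 330 in CR. The groups overlapped, with 4 CR values below the lowest control value and 2 CR values above the control median. The difference was -0.23 ± 0.19 (adjusted p = 0.927, limma), with a 95% interval from -0.63 to 0.16. The highest control value was that of control 1, and without that array the difference was -0.13. A second, dimmer probe set of UCK2 ran from 6.92 to 159 in controls and from 59.5 to 171 in CR, with 2 control arrays under the floor of 16, and moved against the brighter set between animals of a diet (r = -0.85). No direction was read from that set.

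In the de novo route, CAD was measured by a pair of tested probe sets that gave opposite signs. The brighter set (MmuSTS.588.1.S1_at) ran from 13609 through a median of 16117 to 22327 in controls and from 12115 through 15188 to 17509 in CR, a difference of -0.13 ± 0.14 (95% interval -0.43 to 0.16, adjusted p = 0.936, limma). The dimmer set (MmugDNA.5807.1.S1_at) ran from 264 through 467 to 915 in controls and from 414 through 595 to 845 in CR, a difference of 0.25 ± 0.28 (95% interval -0.34 to 0.85, adjusted p = 0.943, limma). The groups overlapped in both sets. Between animals of a diet the sets ran against each other (r = -0.54): control 5 was highest in the brighter set and close to the lowest control in the dimmer one, and CR 1 was lowest in the brighter set and highest of the CR arrays in the dimmer one. Which set reports CAD better was not tested.

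DHODH, the target of leflunomide and related immunosuppressive drugs, differed between the diets by less than its error. Its brighter probe set ran from 243 through a median of 440 to 583 in controls and from 284 through 401 to 488 in CR. The control arrays formed a lower trio (controls 4, 6 and 7, from 243 to 272) and a higher group (controls 1, 2, 3 and 5, from 440 to 583), and the CR values spanned the gap. The difference was 0.038 ± 0.23 (adjusted p = 0.992, limma), with a 95% interval from -0.44 to 0.51. The second set ran from 153 through 176 to 415 in controls and from 83.4 through 229 to 323 in CR, a difference of 0.044 ± 0.30. Its highest value was that of control 1, at 415, while the other 6 controls lay between 153 and 211. The 95% interval of that set ran from -0.58 to 0.67, the wider of the pair.

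CTPS1, the CTP synthase that proliferating lymphocytes depend on, had the smallest spread in controls of the tested members. Its single probe set ran from 2062 through a median of 2356 to 2631 in controls and from 1852 through 2455 to 3440 in CR. The CR values were spread on both sides of the controls, with 3 above the highest control (CR 1, CR 2 and CR 4) and 2 below the lowest (CR 3 and CR 7). The SD was 0.14 in controls and 0.35 in CR on the log2 scale. The difference of the means was 0.099 ± 0.16 (95% interval -0.24 to 0.44, adjusted p = 0.957, limma), and 0.0027 without control 1 and CR 2.

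UPP1, uridine phosphorylase, which breaks uridine down and is known to be induced by inflammatory signals, varied most between animals among the tested members. Its brighter probe set (MmuSTS.1689.1.S1_at) ran from 627 through a median of 1326 to 3034 in controls and from 668 through 2065 to 3362 in CR, and its dimmer set (MmugDNA.8141.1.S1_at) from 639 through 996 to 2632 in controls and from 553 through 1152 to 2250 in CR. The highest array exceeded the lowest by 5.36-fold in the brighter set, and animals of both diets stood at both ends. The differences had opposite signs, 0.27 ± 0.38 (adjusted p = 0.952, limma) for the brighter set and -0.14 ± 0.36 (adjusted p = 0.974, limma) for the dimmer one. For the brighter set the difference was 0.051 without control 1 and CR 2, and 0.46 without CR 6 and CR 7.

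TYMS, thymidylate synthase, which is transcribed mainly in cycling cells and is the target of fluorouracil, overlapped in part between the diets. Its brightest probe set (MmuSTS.4685.1.S1_at) ran from 320 through a median of 814 to 1157 in controls and from 573 through 654 to 1314 in CR. The lowest of all values was that of control 1, and 3 control values lay below the lowest CR value and 1 CR value above the highest control. The CR arrays split into 4 at 573 to 654 (CR 1, CR 2, CR 3 and CR 5) and 3 at 1003 to 1314 (CR 4, CR 6 and CR 7). The difference was 0.24 ± 0.28 (95% interval -0.35 to 0.83, adjusted p = 0.945, limma), and 0.062 without control 1. A second tested set gave 0.24 ± 0.29, and another was too dim to be tested, with 6 arrays under the floor. The tested sets ran together only loosely between animals of a diet (r = 0.41).

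**Figure D2:**
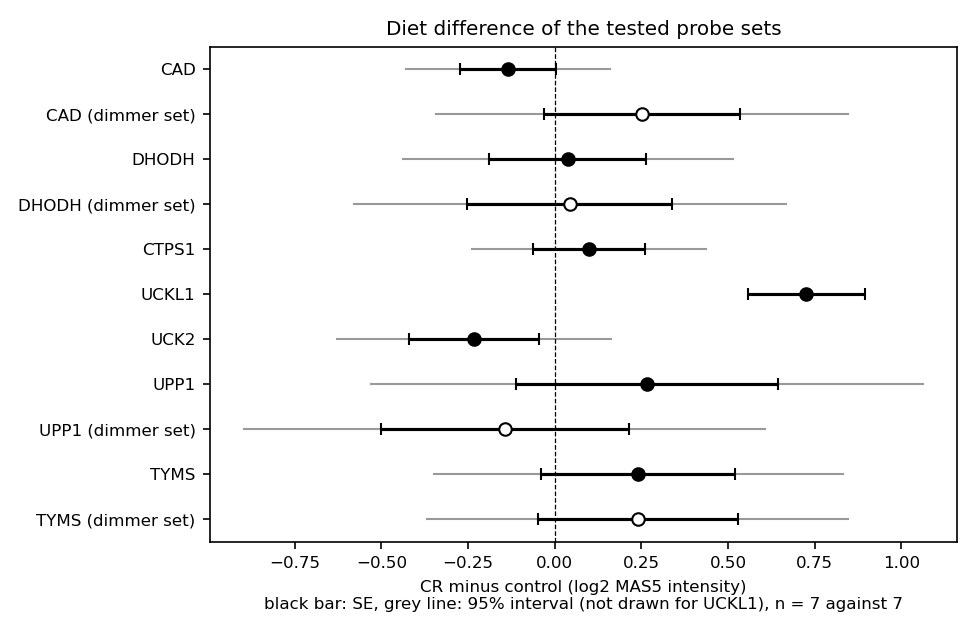
Difference of CR minus control in log2 MAS5 intensity (horizontal axis) for the 11 tested probe sets of the 7 genes; black bars are the SE, grey lines the 95% interval of the limma fit, n = 7 against 7, and open circles are dimmer probe sets of a gene. No interval is drawn for UCKL1, which was selected on this difference, and those of the other 10 probe sets include 0; CAD and UPP1 have a probe set on each side.

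Over the members as a group, 0 of 7 genes passed an adjusted p of 0.05 in limma, as did 0 of all 26383 probe sets (0%), with a smallest adjusted p of 0.771 over all of them. Unmoderated linear models also gave 0. At an unadjusted p under 0.05, limma gave 1350 probe sets (5.12%) and the unmoderated models 1341. No member other than UCKL1, which was chosen on its small p, was among those of limma. Of the 7 genes, 5 had a difference above 0, with a median of 0.099, against 5049 of all 9355 tested genes and a median of 0.025. These counts rest on the contrast that put UCKL1 on the list and support nothing by themselves. Apart from UCKL1, differences of the brightest probe sets ran from -0.23 (UCK2) to 0.27 (UPP1).

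The remaining steps of pyrimidine metabolism were described with a list of 32 further genes, of which 20 had a single-gene probe set and 15 were tested. None of the 15 passed (limma; 1 had an unadjusted p under 0.05), 5 were above 0 and 10 below, and the median difference was -0.074. The deoxynucleoside kinases TK1, TK2 and DCK and the carrier SLC29A2 were among those with no single-gene probe set and were not analysed here, while the carriers SLC29A1 (0.0022 ± 0.26) and SLC28A3 (-0.12 ± 0.28) were tested. The 4 genes with the smallest unadjusted p were TYMP, CMPK2, DTYMK and RRM2B. TYMP, thymidine phosphorylase, which splits thymidine and is abundant in monocytes and platelets, ran from 556 through a median of 1005 to 2807 in controls and from 301 through 643 to 1348 in CR. Its difference was -0.78 ± 0.37 (adjusted p = 0.918, limma). Of its CR values 2 exceeded the control median, and a second probe set gave -0.37 ± 0.18. The lowest TYMP values were those of CR 6 and CR 7, at 301 and 337, and without these arrays, which were also lowest for neutrophil and platelet markers, the difference was -0.38 ± 0.34. The part of those cells in the TYMP difference was not tested. With the monocyte score as a covariate it was -0.34 ± 0.25.

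CMPK2, a mitochondrial nucleotide kinase induced by interferon, ran from 131 through a median of 300.4 to 1027 in controls and from 129 through 189 to 440 in CR, a difference of -0.56 ± 0.39. DTYMK, which phosphorylates the TYMS product dTMP, ran from 319 through 408 to 531 in controls and from 352 through 442 to 539 in CR. Its difference was 0.23 ± 0.17, and 6 CR values exceeded the control median. RRM2B, the p53-inducible subunit of ribonucleotide reductase, was at -0.44 ± 0.37, while its other tested sets gave 0.057 ± 0.25 and -0.041 ± 0.21. RRM1, the large subunit of the same enzyme, was at 0.11 ± 0.14, and CTPS2, the second CTP synthase, at -0.15 ± 0.17. The groups of each of these genes overlapped.

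Purine enzymes were set beside them as the other nucleotide pathway. Of 27 listed symbols, among them ADSS and ADSSL1 as older names of ADSS2 and ADSS1, 20 were tested. Of these 14 were above 0, with a median of 0.11, and none passed (limma, 0 with an unadjusted p under 0.05). ADSL, adenylosuccinate lyase of the de novo route, was at 0.42 ± 0.24 and its second probe set at 0.43 ± 0.33. Among the salvage enzymes, APRT was at 0.34 ± 0.23, HPRT1 at 0.24 ± 0.18 and ADK at 0.25 ± 0.20, though a second set of ADK gave -0.11 ± 0.29. HPRT1 had 7 of 7 CR values above the control median, as had 1079 of all 26383 probe sets (4.09%).

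Whether the members moved with the cell makeup of the samples was tested between animals of the same diet, as the slope of log2 intensity on a marker score with diet in the model, over all 26383 probe sets. The members were chosen by pathway around UCKL1 and its diet difference, not on this relation, though with earlier results of these data known. On the monocyte score, 1195 probe sets (4.53%) had a slope past an adjusted p of 0.05 in limma, 736 of them above 0 (2.79%). Of the 11 probe sets of the members 1 passed and 2 had an unadjusted p under 0.05, against 20.8% of all probe sets. The one that passed was the dimmer set of UPP1, with a slope of 0.67 ± 0.18 log2 units per unit of score (adjusted p = 0.0392, limma). Its slope was 0.79 in control arrays alone and 0.63 in CR arrays alone. The other was the dimmer set of DHODH, with a slope of -0.48 ± 0.16 (adjusted p = 0.102, limma, and from 0.0516 to 0.356 over the alternatives run). On the B cell score these sets had slopes of -1.29 ± 0.29 (UPP1) and 0.87 ± 0.28 (DHODH), as descriptions. CR 6 and CR 7, lowest on the monocyte score, were also lowest for neutrophil and platelet markers. The part of B cell, neutrophil or platelet signal in either monocyte slope was not tested. The brighter UPP1 set had a slope of 0.30 ± 0.24 (adjusted p = 0.520, limma), and the difference between the sets was not tested. The call on the dimmer set ended without control 1 (0.64), control 2 (0.63), CR 1 (0.61), CR 2 (0.67), CR 5 (0.66) or CR 7 (0.64). It ended without CR 6 and CR 7 together (0.98, adjusted p = 0.167, limma). The same held without control 1 and CR 2 together (0.64, adjusted p = 0.122, limma). With the replicate number as a block it ended too (0.55, adjusted p = 0.168, limma). In each of these fits the slope was above 0, and over all alternatives run the adjusted p ran from 0.0284 to 0.168 (limma).

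TYMP, the other nucleoside phosphorylase, had a slope of 0.79 ± 0.16 on the monocyte score (adjusted p = 0.00911, limma) and was the 1 gene of the further 15 to pass. It passed with each of the 14 arrays left out in turn, at slopes from 0.73 to 0.85, and ended without CR 6 and CR 7 together (0.79, adjusted p = 0.243, limma). Over all probe sets, leaving out those 2 arrays took the count of slopes on the monocyte score from 1195 to 32. Leaving out CR 1, CR 6 or CR 7 alone took it to 495, 563 and 495.

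**Figure D3:**
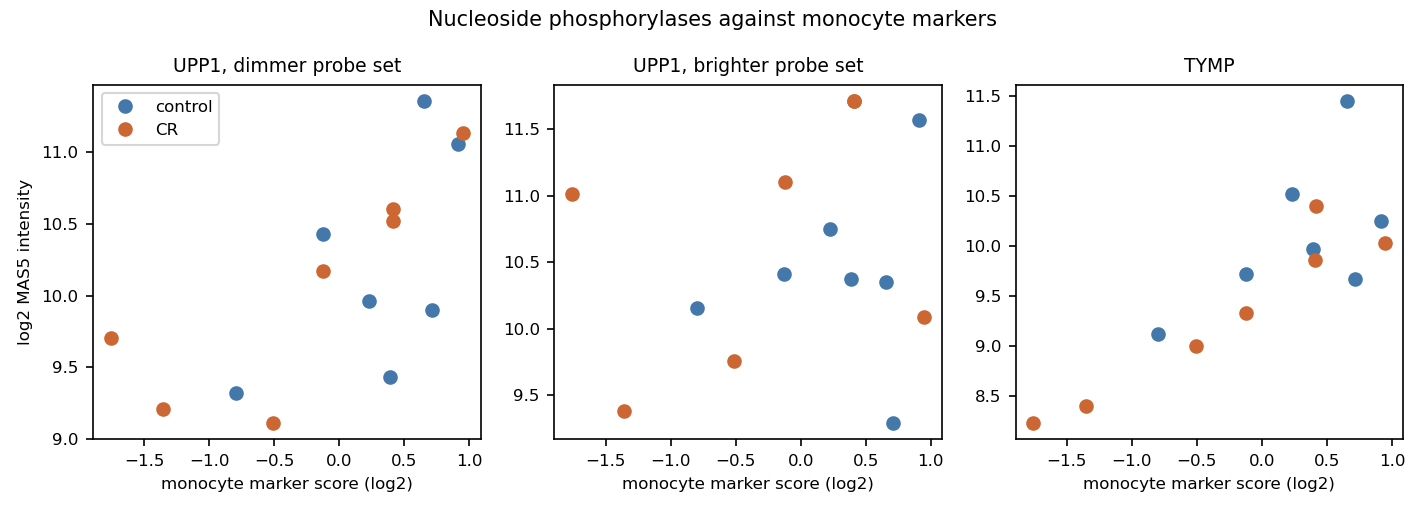
Log2 MAS5 intensity (vertical axes) of the dimmer and brighter UPP1 probe sets and of TYMP against the monocyte marker score (horizontal axes, mean centred log2 of 10 marker genes), 1 point per animal, control in blue and CR in orange. The dimmer UPP1 set and TYMP are higher in animals with a higher score in both diets, and CR 6 and CR 7 are the points farthest to the left.

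The proliferation score, from 10 tested genes of dividing cells such as MKI67, TOP2A and CDK1, had 67 probe sets with a slope past the threshold (0.254%), and 0 of the 11 of the members passed (limma; 1 had an unadjusted p under 0.05, against 15.7% of all probe sets). That 1 was the brightest set of TYMS, with a slope of 1.19 ± 0.32 and an adjusted p of 0.101 in limma. The slope was 1.84 in control arrays alone and 0.92 in CR arrays alone. It ran from 0.98 to 1.55 with 1 array left out, at adjusted p from 0.0639 to 0.9999 over the alternatives run. The second TYMS set had a slope of 0.14 ± 0.45. The brightest sets of CAD, DHODH, CTPS1, UCK2 and UPP1 had slopes below 0, from -0.87 ± 0.55 (UPP1) to -0.080 ± 0.21 (CAD). The slope of UCKL1 was 0.42 ± 0.24. Of all 9355 tested genes, 47.3% had a slope above 0 on this score.

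On the T cell and NK scores 33 probe sets (0.125%) and 2 probe sets (0.00758%) passed, and on the GAPDH ratio 0 did (0%, with 2668 at an unadjusted p under 0.05). None of the 11 probe sets of the members passed on any of these (limma; 1, 1 and 3 had an unadjusted p under 0.05, against 11.8%, 9.5% and 10.1% of all probe sets). The dimmer CAD set was the one under 0.05 on both lymphocyte scores, with a slope of 1.68 ± 0.39 on the NK score (adjusted p = 0.225, limma), against -0.42 ± 0.26 for the brighter set. On the GAPDH ratio, both DHODH sets and UCK2 had slopes of 0.40 ± 0.18, 0.55 ± 0.22 and 0.32 ± 0.15. In control arrays alone the slopes were 0.47 (brighter DHODH set), 0.42 (dimmer DHODH set) and 0.36 (UCK2). In CR arrays alone they were -0.14, 1.56 and 0.034. The ratio covered a narrower range in CR (6.03 to 6.87) than in controls (5.06 to 7.50), so the CR slopes are less well determined. Whether the slopes differ between the diets was not tested. With the GAPDH ratio as a covariate, fitted with 1 slope for both diets, the diet difference of UCK2 was -0.37 ± 0.18. That of the brighter DHODH set was -0.13 ± 0.22, which turned the sign of DHODH.

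For UCKL1, slopes on the monocyte, T cell and NK scores were -0.15 ± 0.11, -0.067 ± 0.31 and 0.012 ± 0.33. Its diet difference with 1 score at a time as a covariate was 0.64 ± 0.17 (monocyte), 0.75 ± 0.21 (T cell), 0.72 ± 0.23 (NK), 0.64 ± 0.15 (B cell), 0.70 ± 0.16 (proliferation) and 0.73 ± 0.18 (GAPDH ratio). These fits with a covariate were added after the data had been seen, they use the difference that UCKL1 was selected on, and the part of cell makeup or RNA quality in it was not tested.

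The genes whose log2 intensity was most like that of UCKL1 between animals of a diet, by Pearson r over 14 arrays among 9354 other genes, were BANK1 (0.88), ABO (0.84), ACRBP (0.84), LPCAT1 (0.82) and PLGRKT (0.81). Picked as the highest of 9354 values of r over 14 arrays, these are high partly by selection. BANK1 is a B cell scaffold protein and belongs to the B cell marker list. The B cell score ran from -0.84 to 0.43 in controls and from -0.51 to 0.74 in CR, and the 6 tested B cell markers all had a difference above 0 (median 0.22). CR 3 and CR 6 had the highest B cell scores of the CR arrays and the highest UCKL1 values, and control 5 had the lowest score and the lowest UCKL1 of the controls. Against this order, control 1 had the highest control score (0.43) with UCKL1 at 2071, and CR 2 and CR 5 had the same score (-0.24) with UCKL1 at 2724 and 4188. The slope of UCKL1 on the B cell score was 0.45 ± 0.17, as a description. The score was looked at after BANK1 was found and contains BANK1, so part of this slope follows from that choice. The dimmer sets of UPP1 and DHODH had steeper slopes on the score, of opposite sign for UPP1 (-1.29) and of the same sign for DHODH (0.87). BANK1 itself differed by 0.039 ± 0.31 between the diets.

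**Figure D4:**
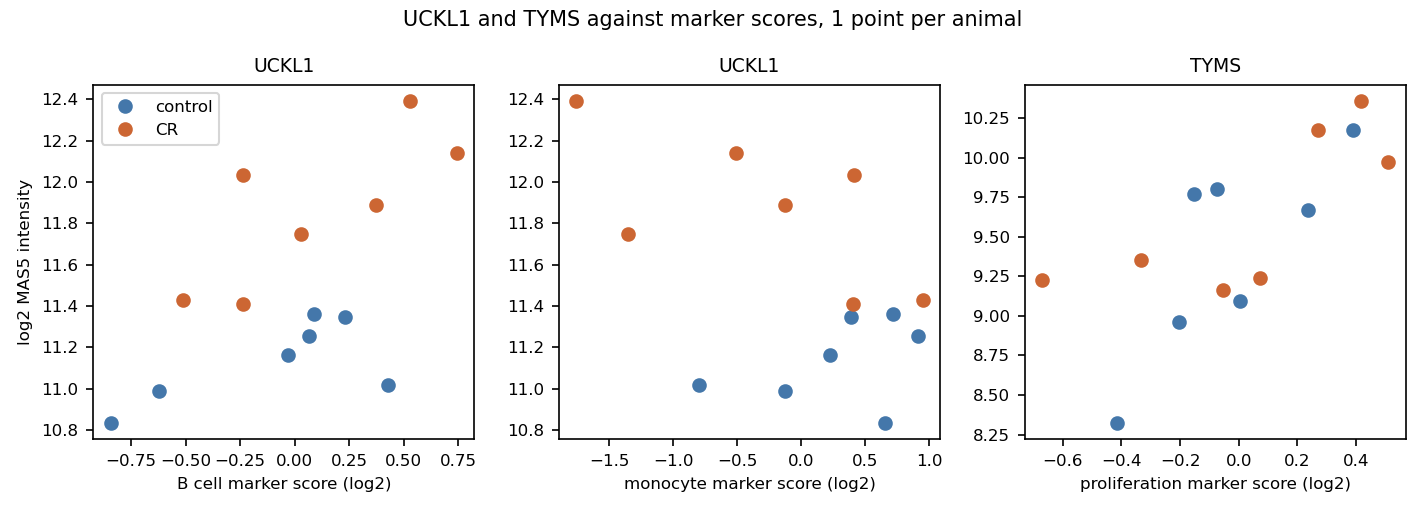
Log2 MAS5 intensity (vertical axes) of UCKL1 against the B cell and monocyte marker scores and of TYMS against the proliferation score (horizontal axes, mean centred log2 of the marker genes), 1 point per animal, control in blue and CR in orange. The diets cover different ranges of the scores, with control monocyte scores from -0.80 and CR ones from -1.76, and the slope of this TYMS set on the proliferation score did not pass (adjusted p = 0.101, limma).

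By the same measure TYMS was most like TRMO (0.87), CCNB2 (0.85), IKZF4 (0.84), LOC707459 (0.84) and TAPT1 (0.82). CCNB2, cyclin B2 of mitosis, is a member of the proliferation list. UCK2 was most like ABCC10 (0.93), RASSF1 (0.92), PARP10 (0.89), VANGL1 (0.89) and RAD9A (0.88), and the brighter UPP1 set most like SAMSN1 (0.77), DDX55 (0.77), ATF6 (0.76), NOL8 (0.74) and HRH1 (0.74). These values too are the highest of 9354 for each gene and are high partly by selection. Arrays share their scaling and RNA quality, so such likeness includes whatever moved a whole array.

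Read from 1 probe set each, the members did not move as a block. Tested sets of the same gene had r from -0.54 (CAD) to 0.50 (UPP1), so a low r between members need not mean that the genes differ. Among the 21 pairs of the 7 genes, r between animals of a diet ran from -0.45 (UCKL1 with CTPS1) to 0.69 (CTPS1 with UPP1), and CTPS1 with UPP1 and UCK2 with DHODH (0.47) were the highest pairs. UCKL1 had r of -0.13 with UCK2 and 0.16 with TYMS.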

How the data were processed

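The authors' deposited values are MAS5 intensities on a linear scale, 1 per probe set and array, per the submitters' processing notes, which give no version. The mean without the top and bottom 2% was 500.0 on each of the 14 arrays, so a change in total RNA would not be visible. For probe set definitions and filters the entry is: not given in the sources used here. Intensities under 16 were set to 16 and log2 was taken. Leaving out 99 AFFX controls, the brighter 50% by mean log2 were tested (26383 probe sets, 9355 genes, geometric mean at least 87.7) with limma 3.58.1 in R 4.3.3 (lmFit, eBayes with trend, two-sided, Benjamini-Hochberg over all probe sets, threshold 0.05). Each gene was read from the brightest of its tested probe sets, named only where the annotation gives 1 symbol (24969 of 52865 probe sets, with 361 naming several genes and 27535 none). The Entrez IDs of all 7 measured members were found in a current rhesus gene table.

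Marker scores are the mean of log2 values centred over the arrays, and the log2 ratio of 3-prime to 5-prime GAPDH control probe sets stands in for RNA quality. The members, lists, tests and alternatives were chosen with earlier results of these data known. Named were the members, the 4 genes with the smallest p in each further list and the 5 genes most like UCKL1, UCK2, TYMS and UPP1. RRM1, CTPS2 and the B cell slope were added after values were seen. The fits were tested on simulated data. The labels call the animals biological replicates and give no scan date or batch. With 7 arrays a group, the typical (median) SE of a difference was 0.25.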

Additional observations from a re-analysis of the deposited data

Results flagged for a closer look

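Of 28 groups of 7 values checked (14 probe sets in 2 diets), 1 had a value that stood apart: DHODH, dimmer probe set, in control 1. Its intensity was 415 against 211 for the nearest control, a gap of 0.678 of the range of the group on the log2 scale, above Dixon's critical value of 0.568. Chance alone flags about 1 in 20 such groups. Control 1 was also the array with the lowest correlation with the others and the highest GAPDH 3-prime to 5-prime ratio, and whether these bear on the DHODH value was not tested.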

How the results depend on the processing

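The count of probe sets with a diet difference past the adjusted p threshold was 0 under each of the 31 alternatives run. The differences of UCK2, CTPS1 and the brighter UPP1 set kept their sign throughout, that of CTPS1 at 0.0027 without control 1 and CR 2. The UCKL1 difference also kept its sign, which leaving out arrays could not turn because its CR values all lay above its control values. The difference of CAD turned with the mean of its probe sets (0.058) or the NK covariate (0.063). That of TYMS turned with the NK covariate (-0.051), and that of DHODH in 8 of 31. Counts of slopes were less stable, and the cause was not tested. For proliferation the count was 113 without a diet term, 371 with quantile normalization, 0 with the replicate block or without control 1 and CR 2, and 2 without CR 6 and CR 7; with 1 array left out it ran from 0 to 158. For monocytes it was 32 without CR 6 and CR 7 and ran from 495 to 1479. For T cells it was 6 with quantile normalization, 0 with the block, 5 without control 1 and CR 2 and 4 without CR 6 and CR 7, and ran from 0 to 118. For NK cells these values were 0, 0, 5 and 1, with 51 without a diet term and a range of 0 to 4, and for the GAPDH ratio the count was 1 with the block and ran from 0 to 3. The labels do not say whether the replicate numbers pair the animals. Of the 7 same-numbered pairs 4 had deviations correlated above 0.1 (range -0.11 to 0.18), and 3 of 14 arrays were most like their own number. With the replicate block the slope on the monocyte score was 0.55 for the dimmer UPP1 set (adjusted p = 0.168, limma), -0.22 for the brighter UPP1 set (reversed) and 0.58 for TYMP (adjusted p = 0.0528, limma), and for TYMP the adjusted p ran from 0.00302 to 0.243 over all alternatives. Dim probe sets near the floor carry mostly noise.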
